A study of Mus musculus with 12 samples.

Results

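Itga8+ mesenchymal stem cells (MSCs) from the endosteal surface of bone were compared with CD51+CD140a+ MSCs from the central bone marrow of the mouse, across all genes and in both directions. The comparison used 6 of the 12 bulk RNA-seq libraries analysed, 3 of each population, chosen by their labels alone. The other 6 libraries, of Itga8-Alcam+ bone-lining cells (BLCs) and Sca-1+ MSCs, entered the filter on low counts and the shared estimate of the spread, and their means are given for a few genes. The study asked which stromal cells at the bone surface maintain haematopoietic stem cells (HSCs). All cells came from wild-type C57BL/6 male mice aged 8 to 10 weeks at steady state, and each library was made from 2000 cells sorted by flow cytometry. Itga8+ MSCs were Itga8+Alcam+Sca-1- cells, released with type I collagenase from fragments of flushed femora, tibias and iliac bones. CD51+CD140a+ MSCs were released with Accumax from the marrow flushed out of femora and tibias. Both gates excluded CD45+ blood cells, Ter119+ erythroid cells and CD31+ endothelial cells. The anatomical site, the enzyme and the sorting markers differed together between the populations, so that their parts in any difference below cannot be told apart.

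CD51 is integrin alpha V and CD140a is platelet-derived growth factor receptor alpha, and together they mark perivascular stromal cells of the marrow. These overlap with the cells known as LepR+ or CXCL12-abundant reticular cells, which are a known source of CXCL12, the chemokine that holds HSCs in the marrow, and of stem cell factor, the product of Kitl. Itga8 encodes integrin alpha 8, a receptor that joins integrin beta 1 and binds proteins of the extracellular matrix. The endosteum is the cell layer on the inner bone surface, and tendon, ligament and cartilage, which attach to bone, are built from fibrillar collagens, small leucine-rich proteoglycans and matricellular proteins such as thrombospondins.

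Between 17580677 and 19312217 counts per library were obtained for Itga8+ MSCs and between 29652779 and 31332475 for CD51+CD140a+ MSCs. Values of the 3 libraries of a population are given in the order of replicates 1 to 3. Levels of a gene are given as CPM, its counts for each 1000000 of the library total after TMM scaling, and as TPM, its transcripts for each 1000000, which corrects for transcript length, where genes are compared with each other. The labels do not say whether the 3 libraries of a population came from separate mice, so the false discovery rates (FDRs) below measure the spread between these libraries, which may be technical. Pearson's r across genes, computed on log2 CPM, was 0.960 to 0.974 between CD51+CD140a+ MSC libraries and 0.862 to 0.95 between Itga8+ MSC libraries, with the lowest value between Itga8+ replicates 2 and 3. Itga8+ replicate 2 stood apart from the others of its population. It had 0.546% mitochondrial and 1.18% ribosomal protein counts, against 0.0718% and 0.402% in replicate 1 and 0.0748% and 0.257% in replicate 3. The median SD of log2 CPM across genes was 0.509 between Itga8+ MSC libraries and 0.219 between those of CD51+CD140a+ MSCs.

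The populations differed in 6631 of the 18648 genes tested, or 35.6%. The test was edgeR's quasi-likelihood test in 1 model of all 12 libraries, and calls needed an FDR (by Benjamini and Hochberg) of less than 0.1 together with more than a 2-fold difference. In Itga8+ MSCs, 3959 genes (21.2% of those tested) were higher and 2672 (14.3%) were lower. Over all genes tested, log2 fold changes had a median of 0.18. Of the genes called higher, 3308 had all Itga8+ MSC libraries above all CD51+CD140a+ MSC libraries, and 2580 of those called lower had them below. Among all genes tested, called or not, libraries did not overlap in 22.9% with Itga8+ MSCs above and in 21.5% with Itga8+ MSCs below. By fitted fold changes, 1422 genes were called higher and 614 lower by more than 16-fold, and 258 and 46 by more than 256-fold. These numbers include genes near 0 counts in one population, whose fitted values depend on the model's prior count. The CD51+CD140a+ MSC libraries held more counts, so the numbers for the directions cannot be compared directly. For 920 genes called higher the CD51+CD140a+ MSC libraries together held 3 counts or fewer, and for 332 genes called lower this was so in the Itga8+ MSC libraries. For such genes a ratio, its lower bound or the counts alone are given in place of the fitted fold change. In bounds the level of 3 counts over the group stands for 0 counts, 0.0293 CPM in CD51+CD140a+ MSCs and 0.0528 CPM in Itga8+ MSCs. These intervals and bounds cover counting error only, since copies made by amplification are counted as separate reads. Protein-coding genes made up 3364 of the genes called higher and 2143 of those called lower, and long intergenic non-coding RNA genes 118 and 101. For a single gene, an exact permutation test of 3 libraries against 3 cannot give a p below 0.1, so calls rest on the model across all genes. Where no gene of a list is given as called in one direction below, DESeq2 and limma-trend called none there either, and at an unadjusted p under 0.05 there was none, except for 1 respiratory chain gene that was lower. In bulk samples, fewer cells that express a gene and less of its RNA in each cell cannot be told apart.

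**Figure D1:**
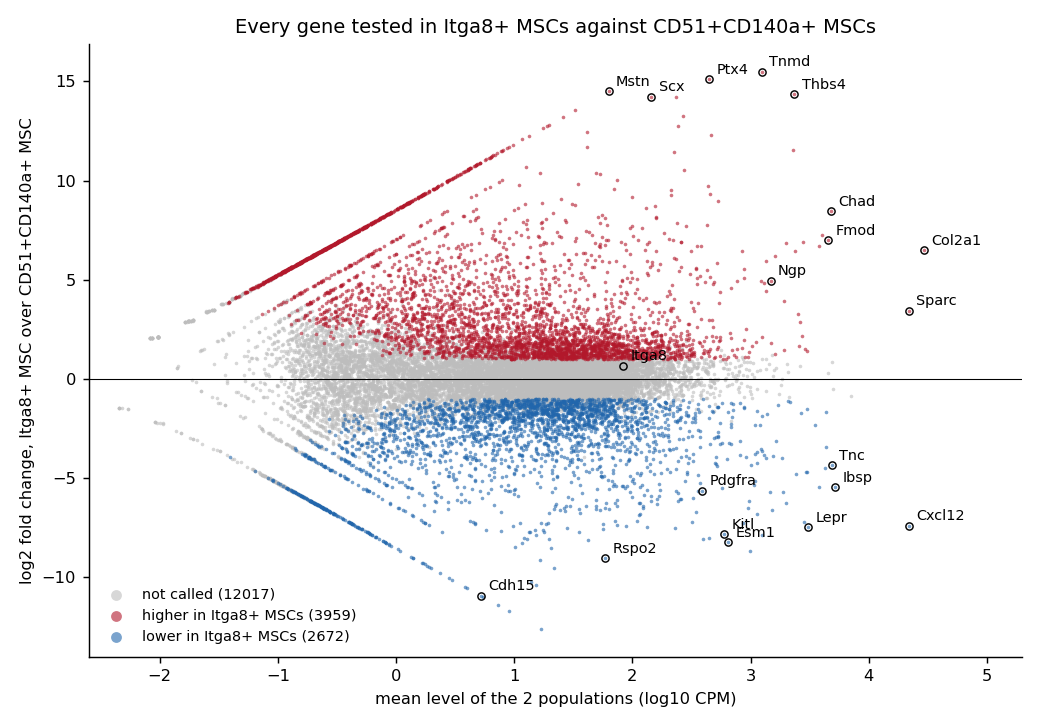
Every gene tested, with the mean of the population levels (log10 CPM) on the horizontal axis and the fitted log2 fold change of Itga8+ MSCs over CD51+CD140a+ MSCs on the vertical axis. Red points are the 3959 genes called higher, blue points the 2672 called lower and grey points those not called, 20 genes are labelled, and 111 genes at 0 in both populations are not drawn. Straight lines of points at the edges are genes without reads in one population, for which the fitted value depends on the model's prior count.

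Markers of other cell types were summed in every library, and several differed between the populations. The 13 neutrophil and myeloid markers summed to 7719, 21710 and 3139 CPM in the Itga8+ MSC libraries, and to 1280, 1833 and 1155 CPM in the CD51+CD140a+ MSC libraries. Of these 13 genes, 9 were called higher in Itga8+ MSCs, where 21.2% of all genes tested were, and none lower. Among them were Ngp and Camp, which encode granule proteins of neutrophils, and S100a8, whose log2 fold changes of 4.96, 5.53 and 5.19 were 3.20, 3.35 and 2.53 without Itga8+ replicate 2. Elane, which encodes neutrophil elastase, was counted at 675, 1486 and 327 CPM against 61.2, 156 and 96.1 CPM. All of the Itga8+ MSC libraries exceeded all of the CD51+CD140a+ MSC libraries for these 4 genes, and replicate 2 was highest. Ptprc, which encodes CD45, the marker used to remove blood cells, was at 17.0, 17.4 and 12.7 CPM against 11.3, 6.94 and 7.41 CPM and was not called (FDR = 0.305). The lymphoid list summed to 72.7, 261 and 26.9 CPM against 16.3, 25.6 and 10.6 CPM, and 6 of its 12 genes, among them Cd3e, Cd4, Cd8a and Ms4a1, stayed under the level needed for a test. Of the other 6, 5 were called higher, but 1 without Itga8+ replicate 2, 2 without CD51+CD140a+ replicate 2 or 3 or with the 6 libraries alone, and 3 at an FDR under 0.05. Skeletal muscle markers summed to 24.8, 68.0 and 44.1 CPM against 4.75, 5.65 and 3.09 CPM, and 6 of 9 tested were called higher. The myosin heavy chain genes Myh1, Myh2 and Myh4 and the muscle stem cell genes Pax7 and Myf5 stayed under the level needed for a test. Osteoclast markers reached 203, 644 and 333 CPM against 156, 149 and 163 CPM and Schwann cell and neural markers 84.2, 131 and 60.8 CPM against 22.4, 21.8 and 24.6 CPM, with Foxd3 and Nefl, tested because of reads in the other populations, at 0 in the 6 libraries compared. Of these, 3 of 6 and 2 of 9 genes tested were called higher, the last a share (22.2%) near that of all genes. Adipocyte markers summed to 24.1 to 31.1 CPM in Itga8+ MSCs against 2085 to 2358 CPM, the last nearly all from Adipoq. Of 6 tested, 2 were called lower and 1 higher, and the median log2 fold change was -0.89. This median moved between -2.83 without Itga8+ replicate 1 and 0.55 without CD51+CD140a+ replicate 2. The number called lower was 3 without Itga8+ replicate 1, and 1 without Itga8+ replicate 2, without CD51+CD140a+ replicate 2 or 3, with the 6 libraries alone, with a replicate block and at an FDR under 0.05. Sums of smooth muscle and pericyte markers were 214, 405 and 663 CPM against 137, 235 and 158 CPM, those of endothelial markers 47.2, 28.1 and 21 CPM against 26.4, 22.7 and 66.6 CPM, and those of erythroid markers 486, 2616 and 259 CPM against 1002, 759 and 795 CPM, so that these 3 sums overlapped between the populations. Of 10 smooth muscle and pericyte markers, 4 (40%) were called higher, all without overlap, and 2 (20%) lower, beside 21.2% and 14.3% over all genes. Of 10 endothelial markers, 2 (20%) were called higher and 2 (20%) lower, shares near those of all genes. The number called lower was 1 in either list without Itga8+ replicate 2, for smooth muscle also without Itga8+ replicate 1 or CD51+CD140a+ replicate 2, and for endothelial markers also without CD51+CD140a+ replicate 1 or 3, with limma-trend, with a replicate block and at an FDR under 0.05. Of 9 erythroid genes tested 1 was called lower, but 5 without Itga8+ replicate 2, and none without Itga8+ replicate 1, without CD51+CD140a+ replicate 1 or 3, with a replicate block or at an FDR under 0.05. The part of other cells in the results below was not tested, and values without Itga8+ replicate 2 are given where they change a call.

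**Figure D2:**
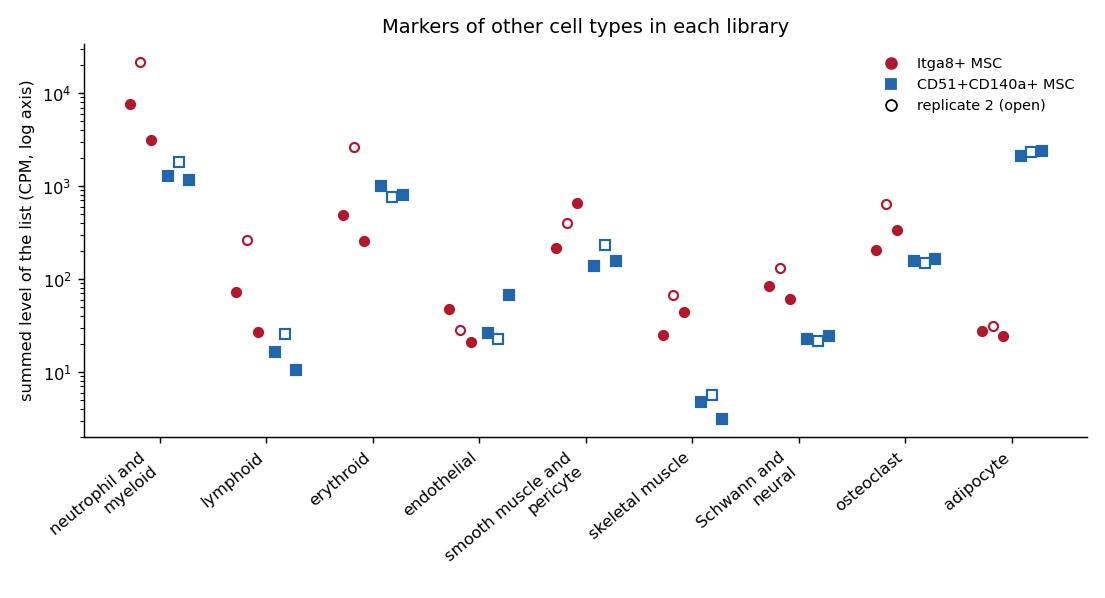
Summed level of 9 marker lists in each library, in CPM on a log axis. Circles are Itga8+ MSC libraries, squares are CD51+CD140a+ MSC libraries, and open symbols mark replicate 2 of each. Itga8+ replicate 2 was the highest of the 6 libraries for the neutrophil and myeloid, lymphoid, erythroid, skeletal muscle, Schwann and neural, and osteoclast lists, and all Itga8+ MSC libraries were below all CD51+CD140a+ MSC libraries for the adipocyte list.

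The genes given as markers of the populations separated them without overlap. Tnmd (ENSMUSG00000031250, chrX:133850980-133865577, GENCODE M21 on mm10), which encodes tenomodulin, a membrane protein of mature tendon cells, was counted at 639, 5327 and 1536 CPM in Itga8+ MSCs and at 0.0273, 0 and 0.129 CPM in CD51+CD140a+ MSCs (log2 fold change 15.47, standard error 1.21, FDR = 4.3e-06). Ptx4 (ENSMUSG00000044172, chr17:25120760-25125292), a member of the pentraxin family of secreted proteins, was counted at 328, 1545 and 808 CPM against 0, 0 and 0.0644 CPM. The 2 counts in CD51+CD140a+ MSCs gave a ratio of 45820 with a 95% counting interval of 12680 to 378400 (FDR = 2.34e-06). Both genes were abundant in every Itga8+ MSC library, highest in replicate 2, and nearly without reads in CD51+CD140a+ MSCs. Cxcl12 (ENSMUSG00000061353, chr6:117168535-117181367) was counted at 192, 137 and 444 CPM in Itga8+ MSCs and at 44820, 34990 and 50660 CPM in CD51+CD140a+ MSCs, where it was the gene with the most counts in every library. Kitl (ENSMUSG00000019966, chr10:100015630-100100416) was counted at 7.57, 2.49 and 5.89 CPM against 1207, 1291 and 1076 CPM (log2 fold change -7.81, standard error 0.459, FDR = 1.07e-06). For both, each Itga8+ MSC library was far below each CD51+CD140a+ MSC library. Tnmd and Ptx4 were taken as markers with results of these same libraries known. The study had also reported low Cxcl12 and Kitl in Itga8+ MSCs from its RNA-seq. The separation by Tnmd, Ptx4, Cxcl12 and Kitl is therefore a description and does not test the labels.

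The 250 bases before the RefSeq start of 4 of these genes are shown as examples from both ends of the comparison, Tnmd and Thbs4 from Itga8+ MSCs and Cxcl12 and Lepr from CD51+CD140a+ MSCs, read 5′ to 3′ on the strand of the gene (RefSeq, GRCm38.p6, whose start lies 28 bases from that of GENCODE for Tnmd and 3 for Lepr). The windows lie at chrX:133850758-133851007 on the + strand, chr13:92794819-92795068 on the - strand, chr6:117168285-117168534 on the + strand and chr4:101717157-101717406 on the + strand. Capitals mark matches on either strand to 4 short motifs, the E-box CANNTG, the TATA box TATAAA, the GC box GGGCGG and the AP-1 site TGANTCA, where N is any base.
Tnmd: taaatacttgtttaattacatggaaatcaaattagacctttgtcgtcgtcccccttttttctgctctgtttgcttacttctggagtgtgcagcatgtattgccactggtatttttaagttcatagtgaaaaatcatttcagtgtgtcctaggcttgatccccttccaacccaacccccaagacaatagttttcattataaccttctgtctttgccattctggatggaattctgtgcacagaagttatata
Thbs4: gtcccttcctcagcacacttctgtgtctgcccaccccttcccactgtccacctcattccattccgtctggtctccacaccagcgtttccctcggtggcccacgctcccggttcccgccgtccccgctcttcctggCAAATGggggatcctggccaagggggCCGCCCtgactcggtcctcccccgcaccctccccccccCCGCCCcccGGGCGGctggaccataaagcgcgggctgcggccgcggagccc
Cxcl12: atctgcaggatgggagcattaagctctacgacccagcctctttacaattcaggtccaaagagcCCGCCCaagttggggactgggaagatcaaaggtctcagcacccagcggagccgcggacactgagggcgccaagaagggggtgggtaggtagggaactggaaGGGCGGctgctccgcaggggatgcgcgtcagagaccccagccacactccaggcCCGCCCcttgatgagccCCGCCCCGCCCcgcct
Lepr: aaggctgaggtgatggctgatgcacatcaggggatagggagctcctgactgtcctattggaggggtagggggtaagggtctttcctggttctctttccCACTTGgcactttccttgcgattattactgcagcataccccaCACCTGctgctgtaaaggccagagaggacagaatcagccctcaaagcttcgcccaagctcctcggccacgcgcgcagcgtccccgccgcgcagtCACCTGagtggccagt
The Tnmd window was 38.4% G and C and held none of the 4 motifs. The Thbs4 window, 70.8% G and C, held 1 E-box and 3 GC boxes, the Cxcl12 window, 64.4% G and C, held 5 GC boxes of which the last 2 share letters, and the Lepr window, 58.4% G and C, held 3 E-boxes. Such a match is a description of these letters and not a site of binding. Of the 12632 tested genes with such a window, 58.4% held an E-box, 55.2% a GC box, 7.2% a TATA box and 4.7% an AP-1 site. Among the 2770 of them called higher in Itga8+ MSCs these shares were 61.6%, 52.1%, 8.01% and 6.93%, and among the 1767 called lower they were 57.6%, 55.5%, 8.04% and 3.4%. The median content of G and C was 58.4% in the windows of genes called higher, 60.0% in those called lower and 59.2% over all.

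Among the sorting markers, the transcript of Itga8 itself did not separate the populations in these libraries. The gate was set on the protein. By flow cytometry and quantitative PCR, the study found substantially less Itga8 protein and mRNA in CD51+CD140a+ MSCs than in Itga8+ MSCs. Itga8 (chr2:12106632-12301922) was counted at 73.5, 35.2 and 199 CPM in Itga8+ MSCs and at 57.0, 82.9 and 53.1 CPM in CD51+CD140a+ MSCs, and the libraries overlapped (log2 fold change 0.67, standard error 0.731, FDR = 0.503). The sign rested on Itga8+ replicate 3, without which the log2 fold change was -0.24. Alcam, an adhesion molecule of the immunoglobulin family and the other positive marker of the Itga8+ gate, was low in all libraries, at 1.29, 5.04 and 2.72 CPM against 0, 0.0287 and 0.0644 CPM. It was higher in Itga8+ MSCs without overlap (ratio 103, 95% counting interval 35.2 to 499, FDR = 0.000176). Ly6a, which encodes Sca-1, against which Itga8+ MSCs were selected, was also higher there, at 23.4, 28.1 and 8.61 CPM against 1.23, 0.602 and 2.42 CPM (log2 fold change 3.82, FDR = 0.000347), a value that is uncertain because near-identical copies of Ly6a can share its reads. Pdgfra, which encodes CD140a, was lower in Itga8+ MSCs, at 14.4, 5.35 and 26.5 CPM against 682, 754 and 867 CPM (log2 fold change -5.64, FDR = 6.14e-05). Itgav, which encodes CD51, was at 24.4, 12.7 and 118 CPM against 195, 121 and 177 CPM and was not called (log2 fold change -1.67, FDR = 0.137), although DESeq2, limma-trend, scaling by library totals and the fit without Itga8+ replicate 3 (-3.14) called it lower. Pecam1, which encodes CD31, was low in both populations, at 12.2, 2.39 and 2.72 CPM against 3.06, 4.07 and 4.83 CPM.

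All 11 genes of a list linked to Itga8+ cells were higher in Itga8+ MSCs, with no overlap between libraries and a median log2 fold change of 12.72. Over all genes tested, 21.2% were called higher, and 22.9% had Itga8+ MSCs above without overlap. The list was drawn up from genes the study names and from earlier results of these same libraries, so its direction is not independent evidence. Thbs4, which encodes thrombospondin 4, a protein of tendon and muscle matrix, was counted at 2848, 2504 and 8751 CPM in Itga8+ MSCs and at 0.0273, 0.229 and 0.419 CPM in CD51+CD140a+ MSCs (log2 fold change 14.35, standard error 1.02, FDR = 2.34e-06). Scx, which encodes scleraxis, the transcription factor of tendon progenitors, was counted at 131, 442 and 296 CPM, and CD51+CD140a+ MSCs held 1 count of it in all (ratio 29700, 95% counting interval 5330 to 1173000). Both were present in every Itga8+ MSC library and at the edge of detection in CD51+CD140a+ MSCs. Kera, which encodes the proteoglycan keratocan, was at 134, 898 and 382 CPM, with 2 counts in CD51+CD140a+ MSCs. Mfap4, which encodes a microfibril-associated glycoprotein, was at 309.9, 594 and 443 CPM against 0.273, 0.0573 and 0.129 CPM (log2 fold change 11.45, standard error 0.646, FDR = 9.24e-07). The lowest Itga8+ MSC library thus held more than the highest CD51+CD140a+ MSC library for each of these genes. Chodl, Cpxm2, Chil1 and F3, the last encoding tissue factor, the starter of blood coagulation, had log2 fold changes of 12.72, 10.52, 9.32 and 8.97. Postn, which encodes the matricellular protein periostin, differed least in this list, at 3185 ± 2261 against 43.4 ± 22.0 CPM (SD, n = 3 libraries each here and below; log2 fold change 6.20, FDR = 3.86e-05).

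Most tendon and ligament genes were also higher in Itga8+ MSCs, and Tnc and Clu were lower. This list does not repeat the genes just given. Of its 18 genes, 13 (72.2%) were called higher and 2 (11.1%) lower, beside 21.2% and 14.3% over all genes. The median log2 fold change was 3.53. Mstn, which encodes myostatin, a secreted inhibitor of muscle growth, was counted at 60.4, 142 and 176 CPM in Itga8+ MSCs with no read in CD51+CD140a+ MSCs, and was at least 4316-fold higher (FDR = 9.85e-06). Fmod, which encodes fibromodulin, a regulator of collagen fibril assembly, was at 9102, 5538 and 12460 CPM against 67.7, 59.7 and 86.5 CPM (log2 fold change 6.98, standard error 0.435, FDR = 1.22e-06). Comp, which encodes cartilage oligomeric matrix protein, was at 9170, 4646 and 8888 CPM against 38.4, 36.7 and 147 CPM (log2 fold change 6.68, FDR = 1.48e-05). These genes lay well above the CD51+CD140a+ MSC level in every library, Fmod and Comp from a level that was readily detected in CD51+CD140a+ MSCs. The matrix genes Cilp and Cilp2 had log2 fold changes of 11.53 and 12.28, with Itga8+ replicate 2 the lowest of the Itga8+ MSC libraries for both (3165, 903 and 9688 CPM and 670.1, 129 and 1977 CPM). Among genes chosen here after their values were seen, Angptl7 had a log2 fold change of 8.11, Prg4, which encodes the joint lubricant lubricin, 3.03, and Mkx, a transcription factor of tendon, 1.46, the last not called without Itga8+ replicate 3 (0.98). Dpt, which encodes dermatopontin, was at 3.51, 8.21 and 3.52 CPM, with 2 counts in CD51+CD140a+ MSCs. Tnc, which encodes tenascin C, a matrix protein of tendon and of marrow stroma, was lower in Itga8+ MSCs, at 154, 50.9 and 1173 CPM against 8981, 8824 and 9906 CPM (log2 fold change -4.33, standard error 1.14, FDR = 0.0141). Clu, which encodes the chaperone clusterin, was lower as well (538 ± 360 against 1947 ± 210.4 CPM, log2 fold change -1.85, FDR = 0.00806). DESeq2 gave no adjusted p for Tnc.

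Nearly all cartilage genes were higher in Itga8+ MSCs. Of 18 genes, 16 (88.9%) were called higher in Itga8+ MSCs, none lower, and the median log2 fold change was 5.89. Col2a1, which encodes the main fibrillar collagen of cartilage, was counted at 60210, 7596 and 105500 CPM in Itga8+ MSCs and at 455, 395 and 1089 CPM in CD51+CD140a+ MSCs (log2 fold change 6.48, standard error 1.08, FDR = 0.000944). It was the gene with the most counts in Itga8+ replicates 1 and 3, with 6.92% and 10.2% of them, and was lower in replicate 2, where Sparc held the most with 5.99%. Chad, which encodes chondroadherin, was at 11670, 9622 and 7578 CPM against 17.6, 4.53 and 60.1 CPM (log2 fold change 8.46, standard error 0.885, FDR = 3.53e-05). Cnmd, which encodes chondromodulin, a relative of tenomodulin that inhibits the growth of vessels, was at 7341, 12330 and 4406 CPM against 30.7, 58.6 and 69.5 CPM (log2 fold change 7.24, FDR = 6.38e-06). Neither gene overlapped between the populations, and the order of the Itga8+ MSC libraries differed between them and Col2a1. Collagen IX, which decorates the surface of collagen II fibrils, was represented by Col9a1 (2672 ± 1727 against 43.2 ± 33.6 CPM) and Col9a3 (4653 ± 2517 against 53.9 ± 42.5 CPM), with log2 fold changes of 5.95 and 6.43. Sox9, which encodes the transcription factor that specifies cartilage, was at 589, 149.6 and 557 CPM against 50.2, 51.7 and 45.8 CPM (log2 fold change 3.13, standard error 0.461, FDR = 0.000382). Acan, encoding the proteoglycan aggrecan, Matn3, encoding matrilin 3, Hapln1, encoding the link protein that binds aggrecan to hyaluronan, and Ucma had log2 fold changes of 4.89, 6.83, 5.82 and 9.72. These 4 genes and Sox9 were chosen after their values were seen. Col10a1, which marks hypertrophic cartilage, had reads in Itga8+ replicate 1 alone among the Itga8+ MSC libraries and was not called, and Matn1 was not called either. The list summed to 101700, 39020 and 147700 CPM in the Itga8+ MSC libraries against 734 to 1884 CPM in CD51+CD140a+ MSCs, so that the 3 Itga8+ libraries differed in it among themselves.

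Haematopoietic niche factors were mostly lower in Itga8+ MSCs. Of 20 genes, 12 (60%) were called lower and 2 (10%) higher, beside 14.3% and 21.2% over all genes. The median log2 fold change was -3.0. The study reports low Cxcl12, Kitl and Angpt1 in Itga8+ MSCs from its RNA-seq, so their direction is not independent evidence. Cxcl12, whose libraries are given above, was lower by the same test (log2 fold change -7.40, standard error 0.511, FDR = 2.01e-06). Angpt1, which encodes angiopoietin 1, a ligand of the receptor Tie2 on HSCs and vessels, was counted at 2.42, 1.61 and 8.15 CPM against 334, 293 and 331 CPM (log2 fold change -6.30, standard error 0.603, FDR = 1.93e-05). Vcam1, an adhesion molecule that retains HSCs, was at 53.8, 43.1 and 58.7 CPM against 4258, 3199 and 4384 CPM (log2 fold change -6.25, standard error 0.394, FDR = 1.22e-06). Csf1, the growth factor of macrophages and osteoclasts, was at 77.4, 16.1 and 87.0 CPM against 1818, 2830 and 1769 CPM (log2 fold change -5.15, FDR = 0.000143). All 4 were lower in each Itga8+ MSC library than in any CD51+CD140a+ MSC library, and Cxcl12 remained detectable at above 100 CPM in Itga8+ MSCs. Bmp4, a bone morphogenetic protein, was lower (15.4 ± 10.8 against 400.2 ± 97.8 CPM, log2 fold change -4.70, FDR = 6.02e-05). Among further members, chosen after their values were seen, Il7, the growth factor of lymphoid progenitors, was at 1.04, 1.04 and 2.43 CPM against 264, 268 and 266 CPM, Tnfsf11, which encodes the osteoclast factor RANKL, was at 1.80 ± 0.621 against 139.6 ± 27.9 CPM, and Il34 and the Notch ligand Jag1 had log2 fold changes of -3.83 and -3.73. The difference in Igf1, which encodes insulin-like growth factor 1, was smaller (136 ± 48.3 against 305 ± 16.3 CPM, log2 fold change -1.17), and it was not called without Itga8+ replicate 1 (-0.92). Spp1, which encodes osteopontin, was at 1047, 2235 and 1196 CPM against 2154, 3502 and 2653 CPM and was not called (log2 fold change -0.89, FDR = 0.182), except without Itga8+ replicate 2 (-1.28). The 2 genes called higher were Il11, a cytokine of the interleukin 6 family (7.42, 5.19 and 7.45 CPM against 0.0820, 0 and 0.193 CPM, log2 fold change 6.14, FDR = 0.000304), and Ptn, which encodes the growth factor pleiotrophin (55.2, 203 and 71.9 CPM against 8.99, 12.7 and 6.41 CPM, log2 fold change 3.55, FDR = 0.000483). DESeq2 called 4 genes of the list higher, and the fit without Itga8+ replicate 2 called 5.

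The genes of LepR+ adipogenic stroma were lower in Itga8+ MSCs almost without exception. Of 22 genes, 20 (90.9%) were called lower and none higher, beside 14.3% and 21.2% over all genes. The median log2 fold change was -5.55. Lepr, which encodes the leptin receptor, was counted at 28.1, 13.0 and 61.8 CPM in Itga8+ MSCs and at 5727, 5870 and 6739 CPM in CD51+CD140a+ MSCs (log2 fold change -7.48, standard error 0.797, FDR = 3.99e-05). Adipoq, which encodes the hormone adiponectin, was at 13.4, 27.1 and 21 CPM against 2081, 2311 and 2351 CPM (log2 fold change -6.78, standard error 0.725, FDR = 4.08e-05). Esm1, a secreted proteoglycan, was at 2.47, 6.44 and 4.10 CPM against 1263, 1145 and 1446 CPM (log2 fold change -8.21, FDR = 1.21e-06). Itga8+ MSCs thus held a small share of the CD51+CD140a+ MSC level of these genes in every library. The secreted proteins Serping1 (C1 inhibitor), Hp (haptoglobin), Gas6 and Chrdl1 had log2 fold changes of -5.43, -4.71, -4.66 and -3.98, and Kng1, Gdpd2 and Lpl (lipoprotein lipase) of -8.00, -7.88 and -5.71. Cxcl14, a chemokine, and Apoe, which encodes the lipid carrier apolipoprotein E, differed less (-3.26 and -1.73). Among transcription factors of these cells, Foxc1, which maintains reticular cells, was at 71.4, 19.1 and 65.1 CPM against 218, 204 and 255 CPM (log2 fold change -2.12, FDR = 0.00445). Ebf1 (-3.0), Ebf3 (-5.72), the adipocyte regulators Pparg (-5.68) and Cebpa (-4.94), and the secreted factors Agt (-6.14) and Grem1 (-6.26) and the membrane enzyme Dpep1 (-7.28) were chosen after their values were seen.

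**Figure D3:**
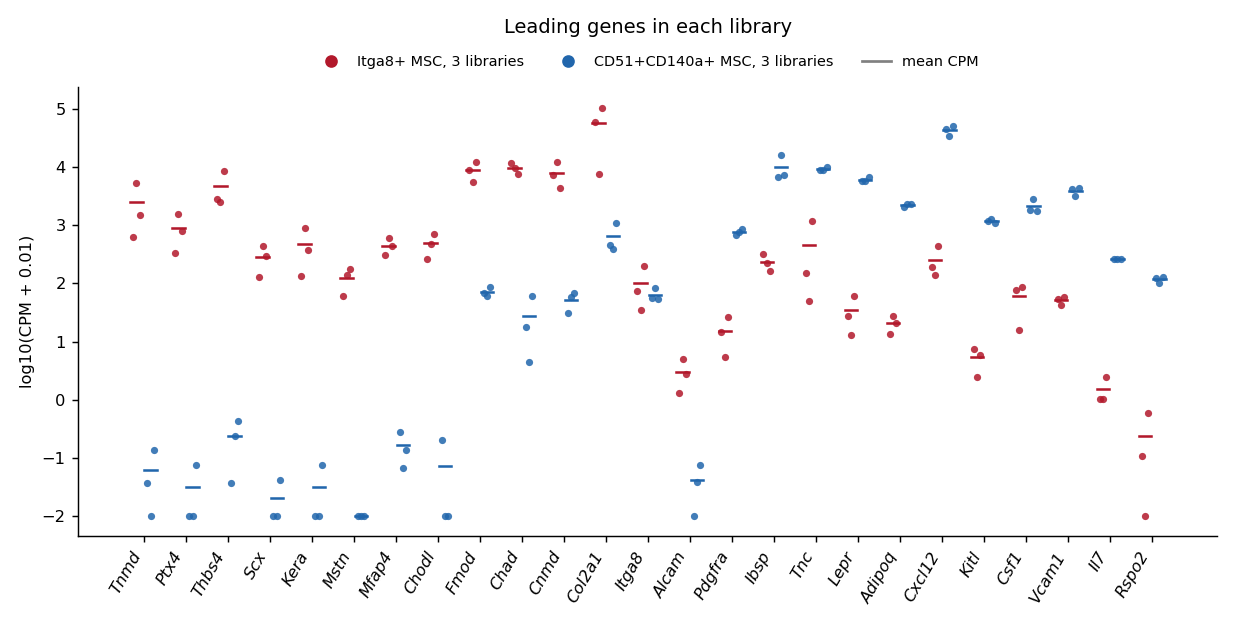
Levels of 25 genes in each library, as log10(CPM + 0.01), with Itga8+ MSC libraries in red, CD51+CD140a+ MSC libraries in blue and a bar at the log10 of each mean CPM. The 12 genes at the left, from Tnmd to Col2a1, lay higher in all Itga8+ MSC libraries, as did Alcam, the libraries overlapped for Itga8, and the genes from Pdgfra to Rspo2 lay lower in all Itga8+ MSC libraries.

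Osteoblast and osteocyte genes were divided, with more of them lower in Itga8+ MSCs. Of 17 genes tested of 18, 8 (47.1%) were called lower and 2 (11.8%) higher, beside 14.3% and 21.2% over all genes, and the median log2 fold change was -1.90. Ibsp, which encodes bone sialoprotein, was counted at 316, 223 and 161 CPM in Itga8+ MSCs and at 6819, 16050 and 7486 CPM in CD51+CD140a+ MSCs (log2 fold change -5.44, standard error 0.475, FDR = 1.01e-05). Runx2, the transcription factor that commits cells to bone, was at 15.2, 22.6 and 24.7 CPM against 81.6, 60.1 and 91.7 CPM (log2 fold change -1.90, FDR = 0.00486). Cdh11, the cadherin of osteoblasts and stroma, was at 106 ± 78.7 against 1524 ± 232 CPM (log2 fold change -3.84, FDR = 0.000279). All 3 were lower in every Itga8+ MSC library. Phex, which regulates phosphate in osteocytes, was at 0.297, 0.0519 and 3.93 CPM against 89.5, 97.8 and 105 CPM, and DESeq2 gave no adjusted p for it. Dmp1 and Dlx5, chosen after their values were seen, had log2 fold changes of -5.45 and -2.13. Sp7, which encodes osterix, was at 28.1, 8.52 and 28.3 CPM against 33.9, 32.4 and 41.9 CPM and was not called (log2 fold change -0.73, FDR = 0.185). Alpl, which encodes alkaline phosphatase, was at 642, 204 and 543 CPM against 322, 209.9 and 265 CPM and was not called (log2 fold change 0.80, FDR = 0.133), except without Itga8+ replicate 2 (1.18). The genes called higher were Smpd3 (384, 50.4 and 571 CPM against 13.5, 26.7 and 56.4 CPM, log2 fold change 3.38, FDR = 0.00938), whose product cleaves sphingomyelin, and Col1a1, which encodes a chain of collagen I (5952, 213 and 7217 CPM against 899.7, 998 and 1121 CPM, log2 fold change 2.15, FDR = 0.0911). Itga8+ replicate 2 lay below all CD51+CD140a+ MSC libraries for Col1a1, and its call was lost with limma-trend, with the 6 libraries alone, with a replicate block, at an FDR under 0.05 and without either other Itga8+ replicate or any 1 of the CD51+CD140a+ replicates.

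Collagen chains were more often higher than lower in Itga8+ MSCs. Of 44 genes, 24 (54.5%) were called higher and 3 (6.82%) lower, beside 21.2% and 14.3% over all genes, and 17 were not called. The median log2 fold change was 2.49, and 1.35 without Itga8+ replicate 3. Per transcript length, Col2a1 led in Itga8+ MSCs with 23260 TPM, followed by Col9a3 with 4374 TPM and Col1a1 with 2561 TPM. Col1a2, which encodes the partner chain of Col1a1, was at 4203, 1505 and 13200 CPM against 3271, 2673 and 4321 CPM and Col3a1 at 1098, 293 and 5036 CPM against 1013, 716 and 1007 CPM. Neither was called, both overlapped between the populations, and the direction of both turned without Itga8+ replicate 3 (log2 fold changes 0.88 and 1.23 with it, -0.25 and -0.38 without it). Col11a1, Col22a1 and Col18a1, chosen after their values were seen, were higher, with log2 fold changes of 4.43, 6.70 and 3.55. Col22a1 marks the junctions of muscle and tendon, and Col18a1, a chain of basement membranes, was at 145, 43.7 and 1032 CPM against 35.4, 25.7 and 43.0 CPM and lost its call without Itga8+ replicate 3 (1.45). The chains called lower were Col6a5 (0.346, 0.104 and 0.636 CPM against 9.13, 24.8 and 20.3 CPM), Col6a4 and Col23a1, with log2 fold changes of -5.64, -4.72 and -1.86. Col4a1 and Col4a2, which encode the collagen IV of basement membranes, were at 80.1, 33.7 and 660.5 and 75.3, 72.7 and 726 CPM in Itga8+ MSCs and at 1272, 706 and 1376 and 792, 380.4 and 938 CPM in CD51+CD140a+ MSCs. They were not called (FDR = 0.122 and 0.293) except with limma-trend and without Itga8+ replicate 3, and for Col4a1 also with DESeq2, with library totals and without a filter on low counts. Limma-trend called 5 collagen genes lower, and the fit without Itga8+ replicate 3 called 7. The summed level of the list was 90730, 15690 and 168700 CPM in Itga8+ MSCs and 11770, 9128 and 15220 CPM in CD51+CD140a+ MSCs, so that replicate 2 lay close to the CD51+CD140a+ MSC range.

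**Figure D4:**
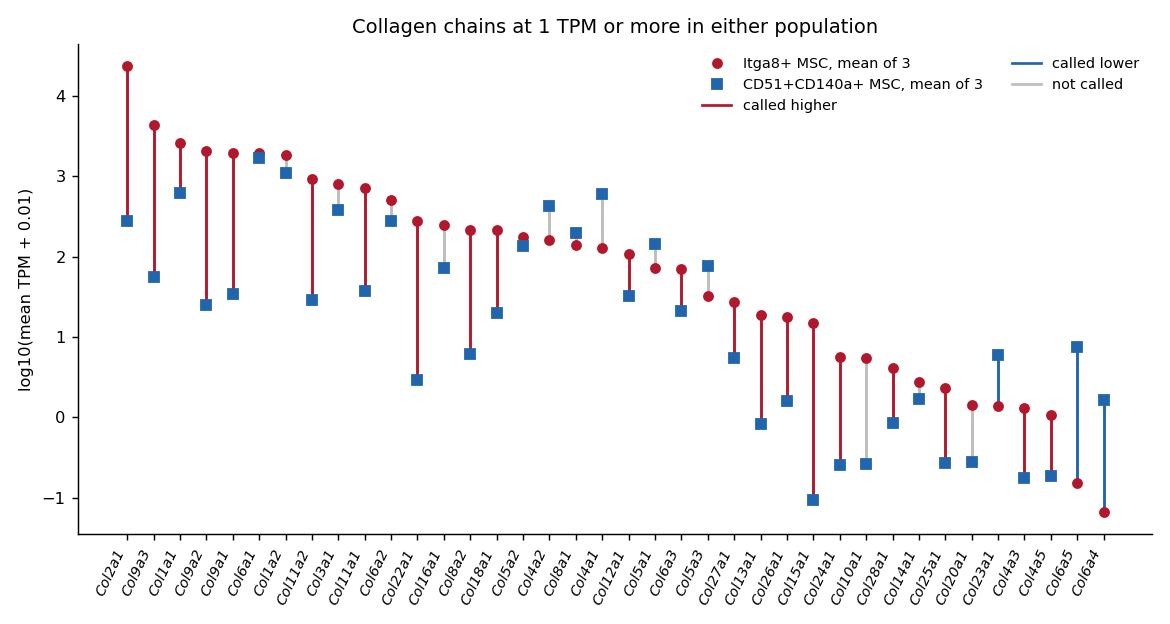
Mean TPM of the 38 collagen chains that reached 1 TPM in either population, as log10(TPM + 0.01), ordered by the level in Itga8+ MSCs. Red circles are Itga8+ MSCs, blue squares are CD51+CD140a+ MSCs, and the line joining them is red for chains called higher in Itga8+ MSCs, blue for chains called lower and grey for those not called. The chains of cartilage, such as Col2a1 and the collagen IX chains, had long red lines, whereas Col1a2, Col3a1 and the collagen V chains had short grey ones.

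Proteins that organise fibrils differed by family. Of 15 small leucine-rich proteoglycans, 9 (60%) were called higher in Itga8+ MSCs and 2 (13.3%) lower, beside 21.2% and 14.3% over all genes, with a median log2 fold change of 1.95. Dcn, which encodes decorin, was counted at 1613, 9675 and 2460 CPM in Itga8+ MSCs and at 598, 738 and 567 CPM in CD51+CD140a+ MSCs (log2 fold change 2.85, standard error 0.665, FDR = 0.00749). Lum, which encodes lumican, was at 704, 1366 and 537 CPM against 233, 238 and 206 CPM (log2 fold change 1.95, FDR = 0.0082). Replicate 2 was the highest library for both, and the log2 fold change of Dcn was 1.71 without it. Aspn, which encodes asporin and was chosen after its values were seen, was higher (5.49). Bgn, which encodes biglycan, was at 2177, 1508 and 2109 CPM against 1268, 1100 and 1588 CPM and was not called (log2 fold change 0.55, FDR = 0.148). Podn and Podnl1 were lower, with log2 fold changes of -3.39 and -4.75. The 24 microfibril and elastic fibre genes split, with 9 (37.5%) called higher, 7 (29.2%) lower, beside 21.2% and 14.3% over all genes, and a median of 0.57, which was -0.03 without Itga8+ replicate 3. Higher were Mfap4, given above, Fbln2, which encodes fibulin 2 (7.58), the cross-linking enzyme gene Loxl3 (1.49) and Mfap2 (1.33), the last not called without Itga8+ replicate 2 (0.75) or without any 1 of the CD51+CD140a+ replicates. Eln, which encodes elastin and was chosen after its values were seen, was at 25.6, 1.92 and 32.1 CPM against 0.710, 2.35 and 1.16 CPM (log2 fold change 3.81, FDR = 0.00588), with Itga8+ replicate 2 inside the CD51+CD140a+ MSC range. Lower were Fbn1, which encodes fibrillin 1, the backbone of microfibrils (33.6, 55.0 and 287 CPM against 1392, 1154 and 989 CPM, log2 fold change -3.23, standard error 0.782, FDR = 0.0092), and Fbln5, which encodes fibulin 5 (144, 200.4 and 242 CPM against 2488, 3371 and 2757 CPM, log2 fold change -3.88, standard error 0.296, FDR = 3.92e-06). Lox, which encodes lysyl oxidase, and Ltbp1, which binds latent TGF-beta, were lower as well (-2.66 and -2.89, the last -4.47 without Itga8+ replicate 3). Each Itga8+ MSC library was below each CD51+CD140a+ MSC library for these 4 genes.

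More matrix proteases and their inhibitors were called lower than higher, and basement membrane genes were called in both directions. Of 15 laminin and basement membrane genes, 5 (33.3%) were called lower and 3 (20%) higher, beside 14.3% and 21.2% over all genes, with a median log2 fold change of -1.26, and the numbers were equal, with 3 called lower and 3 higher, at an FDR under 0.05 and without Itga8+ replicate 1, Itga8+ replicate 2 or CD51+CD140a+ replicate 3. Lamb1 was counted at 5.10, 1.82 and 35.6 CPM in Itga8+ MSCs and at 697, 616 and 806 CPM in CD51+CD140a+ MSCs (log2 fold change -5.64, standard error 1.08, FDR = 0.00232), and Lama4 at 18.3, 7.84 and 58.9 CPM against 305, 315 and 381 CPM (log2 fold change -3.56, FDR = 0.00605). Both encode chains of the laminins of vessel walls and stroma, and neither overlapped. Lama1, chosen after its values were seen, was at 0, 0 and 0.289 CPM against 40.0, 17.4 and 19.5 CPM (log2 fold change -8.06). Without Itga8+ replicate 3 no read of Lama1 was left in Itga8+ MSCs. The fitted value of -12.23 then depends on the prior count and is not a measured fold change. Lamc1 and Agrn were called lower (-2.17 and -2.85), with -3.99 and -5.07 without Itga8+ replicate 3. Both calls were lost at an FDR under 0.05, without Itga8+ replicate 1 (-1.78 and -2.41), without Itga8+ replicate 2 (-1.66 and -2.31) and without CD51+CD140a+ replicate 3 (-2.18 and -2.55), and that of Lamc1 also without either other CD51+CD140a+ replicate, with the 6 libraries alone and with a replicate block. Those higher included Lamb3 (3.58) and Lamc3 (4.45), and the call of Lamc3 was lost without Itga8+ replicate 3 (1.96) and without CD51+CD140a+ replicate 1 (4.27), and that of Lamb3 with the 6 libraries alone. Of 25 proteases and inhibitors, 12 (48%) were called lower and 6 (24%) higher, the last near the share of all genes, with a median of -0.87, which was -1.31 without Itga8+ replicate 1 and -0.36 without Itga8+ replicate 2. Mmp2, a gelatinase, was higher, at 2328, 1305 and 3858 CPM against 66.0, 93.8 and 100.1 CPM (log2 fold change 4.85, standard error 0.425, FDR = 1.03e-05), and so was Timp1, an inhibitor of matrix metalloproteinases, at 226, 916 and 368 CPM against 9.54, 9.35 and 11.7 CPM (log2 fold change 5.63, FDR = 0.000131). Mmp3, which encodes stromelysin 1, was at 71.1, 90.4 and 87.9 CPM, with 1 count in CD51+CD140a+ MSCs (ratio 8524, 95% counting interval 1530 to 336700), and Mmp10, a related stromelysin chosen after its values were seen, was at 7.12, 10.6 and 7.74 CPM with no read in CD51+CD140a+ MSCs and at least 290-fold higher. Mmp13, the main interstitial collagenase of the mouse, was lower, at 5.24, 11.9 and 6.01 CPM against 609.9, 352 and 552 CPM (log2 fold change -6.03, standard error 0.684, FDR = 6.14e-05). Adamts1, which encodes a protease of proteoglycans, and Adamts2, which encodes a processing enzyme of procollagen, were lower too (-3.96 and -4.35). The levels of these protease and inhibitor genes did not overlap between the populations.

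Receptors and adhesion molecules were mixed. Of 20 integrin subunits, 6 (30%) were called higher and 4 (20%) lower, with a median log2 fold change of 0.75 (0.11 without Itga8+ replicate 3), beside the 21.2% and 14.3% over all genes, and limma-trend and the fit without Itga8+ replicate 3 called 7 lower. Itga10, a collagen receptor of cartilage, was counted at 12.8, 6.65 and 14.6 CPM in Itga8+ MSCs and at 0.656, 0.229 and 0.258 CPM in CD51+CD140a+ MSCs (log2 fold change 4.87, standard error 0.544, FDR = 5.57e-05). Itga6, a laminin receptor subunit, was at 24.4, 8.57 and 56.4 CPM against 3.69, 3.15 and 2.25 CPM (log2 fold change 3.29, FDR = 0.00306). Itga1, another collagen receptor, was lower, at 24.4, 9.19 and 31.6 CPM against 288, 257 and 292 CPM (log2 fold change -3.68, standard error 0.502, FDR = 0.000225), as were Itga9 (-3.55) and Itga3 (-3.06). Libraries did not overlap for these genes. Itgb2 and Itgb7, which encode subunits of leukocyte integrins, were higher (2.31 and 2.79), beside the higher level of neutrophil and myeloid markers given above. Itgb1, the partner of integrin alpha 8, was at 528, 335 and 982 CPM against 1132, 1096 and 1217 CPM and was not called because its fold change was under 2 (log2 fold change -0.90, FDR = 0.0814), except with limma-trend, with library totals and without Itga8+ replicate 3. Itga5, the fibronectin receptor, and Itga11, a receptor of collagen I, were not called either (1.23 and -1.6), except for Itga5 without Itga8+ replicate 2 (1.80) and for Itga11 with limma-trend and without Itga8+ replicate 3 (-3.18). Of 22 cadherins and immunoglobulin adhesion molecules tested of 25, 6 (27.3%) were called lower and 4 (18.2%) higher, beside 14.3% and 21.2% over all genes, with a median of -0.28 (-0.13 with bounds in place of floor genes, 0.21 without Itga8+ replicate 2 and -0.81 without Itga8+ replicate 1). Cdh2, which encodes N-cadherin, was at 22.7, 12.5 and 54.9 CPM against 281, 269.6 and 311 CPM (log2 fold change -3.26, standard error 0.737, FDR = 0.00641). Cdh15, which encodes M-cadherin and was chosen after its values were seen, had no read in Itga8+ MSCs and was at 8.20, 9.89 and 13.3 CPM in CD51+CD140a+ MSCs, at least 198-fold lower in Itga8+ MSCs. Thy1, L1cam and Cdh5 were higher but low, with means of 0.472, 1.81 and 3.52 CPM in Itga8+ MSCs.

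Chemokines and cytokines were more often lower in Itga8+ MSCs. Of 39 genes tested of 40, 16 (41%) were called lower and 9 (23.1%) higher, the last near the share of all genes (14.3% lower and 21.2% higher). The median log2 fold change was -0.50 (-0.83 with bounds in place of floor genes, -1.40 without Itga8+ replicate 1 and -1.44 without Itga8+ replicate 2). Apart from the niche factors given above, those lower included Ccl2 and Ccl7, which attract monocytes, at 15.6 ± 13.2 against 546 ± 129 CPM and 7.87 ± 7.16 against 212 ± 56.4 CPM. Cx3cl1, which encodes fractalkine, and Il1rn, which encodes the interleukin 1 receptor antagonist, had log2 fold changes of -3.98 and -6.39. These 4 genes were chosen after their values were seen and did not overlap between the populations. Il16 was higher, at 35.7, 11.6 and 45.6 CPM against 4.51, 4.96 and 4.93 CPM (log2 fold change 2.69, FDR = 0.00212), and Csf2, which encodes GM-CSF and was chosen after its values were seen, was at 1.93, 5.56 and 1.85 CPM with no read in CD51+CD140a+ MSCs (at least 106-fold). Il1b, Ccl4 and Ccl6, which myeloid cells express, were higher as well (3.52, 2.74 and 2.07), all 3 highest in Itga8+ replicate 2, and without it Ccl4 and Ccl6 were not called (0.73 and 0.87). The calls of both were also lost with limma-trend and with the 6 libraries alone, that of Ccl4 with a replicate block and without CD51+CD140a+ replicate 1, and that of Ccl6 without CD51+CD140a+ replicate 3. The number called higher was 5 with limma-trend, with the 6 libraries alone, with a replicate block, without Itga8+ replicate 2 and without CD51+CD140a+ replicate 1.

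Ligands and antagonists of the BMP and TGF-beta family changed in both directions. Of 31 genes tested of 32, 11 (35.5%) were called higher and 10 (32.3%) lower, beside 21.2% and 14.3% over all genes, and the median log2 fold change of 0.28 turned with limma-trend (-0.18), with a replicate block (-0.02) and without Itga8+ replicate 1 (-0.05). Bmp7 was counted at 264, 96.0 and 239 CPM in Itga8+ MSCs and at 0.847, 0 and 0.161 CPM in CD51+CD140a+ MSCs (log2 fold change 9.17, standard error 1.03, FDR = 6e-05). Smoc2, which encodes a matricellular modulator of growth factors, was at 776, 589.5 and 664 CPM against 21.9, 25.4 and 27.0 CPM (log2 fold change 4.77, FDR = 9.06e-07), and Inhba, which encodes a subunit of activin A and was chosen after its values were seen, had a log2 fold change of 4.02. Bmp6, in turn, was lower, at 19.4, 9.04 and 44.5 CPM against 614, 600.2 and 869.9 CPM (log2 fold change -4.84, standard error 0.673, FDR = 0.000264), as was Bmp4, given above. The populations therefore differed in which BMP ligand gene was high, Bmp7 in Itga8+ MSCs and Bmp4 and Bmp6 in CD51+CD140a+ MSCs. Fst, an activin antagonist chosen after its values were seen, Fstl1 and the BMP antagonist gene Chrdl1 were lower, with log2 fold changes of -5.6, -1.59 and -3.98. Tgfb3 was called higher (1.16) with overlapping libraries, a call lost without Itga8+ replicate 3 (0.45), without any 1 of the CD51+CD140a+ replicates, at an FDR under 0.05, with limma-trend, with the 6 libraries alone and with a replicate block.

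Wnt ligands and secreted inhibitors were mostly higher, whereas 2 R-spondins, 2 inhibitors and Wnt4 were lower. Of 28 genes tested of 29, 17 (60.7%) were called higher and 5 (17.9%) lower, beside 21.2% and 14.3% over all genes, with a median log2 fold change of 2.35. Many were low, and 8 of the genes tested had 3 counts or fewer in CD51+CD140a+ MSCs. Wif1, a secreted inhibitor that binds Wnt proteins, was counted at 746, 1440 and 479 CPM in Itga8+ MSCs and at 265, 159 and 198 CPM in CD51+CD140a+ MSCs (log2 fold change 2.1, standard error 0.385, FDR = 0.00177). Wnt11 was at 220, 179 and 198 CPM against 27.6, 40.0 and 40.1 CPM (log2 fold change 2.47, FDR = 6.27e-05), and Notum, which encodes an enzyme that inactivates Wnt proteins, at 139, 75.0 and 105 CPM against 0.847, 0 and 0.483 CPM (log2 fold change 7.88, FDR = 6.32e-05). All 3 were higher in every Itga8+ MSC library. Sfrp2 (3.66) and, chosen after their values were seen, Frzb (3.84) and Sfrp5 (86.5, 105 and 55.5 CPM, with 2 counts in CD51+CD140a+ MSCs) were higher, whereas the related inhibitor genes Sfrp1 and Sfrp4 were lower, the last at 58.5, 51.5 and 52.7 CPM against 2139, 3351 and 3071 CPM (log2 fold change -5.72, standard error 0.369, FDR = 1.4e-06). Wnt7b, also chosen after its values were seen, was at 10.7, 2.54 and 15.4 CPM with no read in CD51+CD140a+ MSCs and at least 326-fold higher. Rspo2 and Rspo3, which encode R-spondins, enhancers of Wnt signalling, were lower. Rspo2 was at 0.0989, 0 and 0.578 CPM against 123, 102 and 127 CPM (log2 fold change -9.04, standard error 1.23, FDR = 0.000218), and Rspo3 had a log2 fold change of -3.36.

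Growth factor systems of the IGF, FGF and PDGF families also differed. Igfbp5, which encodes a binding protein of insulin-like growth factors, was counted at 24.0, 14.8 and 77.5 CPM in Itga8+ MSCs and at 5932, 4090 and 6858 CPM in CD51+CD140a+ MSCs (log2 fold change -7.18, standard error 0.790, FDR = 5.01e-05), and Igfbp4 at 228, 94.4 and 188 CPM against 4880, 3637 and 5558 CPM (log2 fold change -4.78, FDR = 4.3e-06). Igfbp3 was lower as well (-4.14), while Igfbp6, which prefers IGF2, was higher, at 193, 778 and 299 CPM against 0.465, 1.09 and 0.515 CPM (log2 fold change 9.25, standard error 0.770, FDR = 6.87e-06). Of 10 genes of the IGF axis tested of 11, 4 (40%) were called lower and 1 (10%) higher, beside 14.3% and 21.2% over all genes, with a median log2 fold change of -0.94. In the FGF and PDGF list, 10 (50%) of 20 genes tested were called higher and 6 (30%) lower, beside 21.2% and 14.3% over all genes, with a median of 1.17 (1.11 with bounds in place of floor genes, and 0.56 without Itga8+ replicate 3). Pdgfrb was at 36.3, 14.2 and 297 CPM against 2066, 1672 and 2703 CPM (log2 fold change -4.21, FDR = 0.0157, and -6.40 without Itga8+ replicate 3), and Fgfr2 at 135, 37.2 and 162 CPM against 1534, 1925 and 1659 CPM (log2 fold change -3.94, FDR = 0.000297). Fgf7, a ligand of FGFR2, was at 0.396, 3.84 and 1.56 CPM against 231, 199 and 246 CPM (log2 fold change -6.86, FDR = 4.9e-05). These receptors and this ligand were lower in every Itga8+ MSC library. The ligand genes Pdgfa and Pdgfc were higher (1.28 and 4.34), as was Fgf18, chosen after its values were seen, at 7.37, 14.1 and 9.71 CPM against 0.0273, 0 and 0.129 CPM. Fgfr3, a receptor of growth plate cartilage, was called higher, at 324, 37.4 and 573 CPM against 63.4, 35.7 and 93.5 CPM (log2 fold change 2.28, FDR = 0.0554). Itga8+ replicate 2 did not exceed the CD51+CD140a+ MSC range for it, and its call was lost without Itga8+ replicate 3 (1.51) and without CD51+CD140a+ replicate 1 (2.27) or 2 (1.99), at an FDR under 0.05, with limma-trend, with the 6 libraries alone and with a replicate block.

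Transcription factors of limb mesenchyme and position were split. Of 35 limb and mesenchyme factors tested of 36, 10 (28.6%) were called higher and 9 (25.7%) lower, beside 21.2% and 14.3% over all genes, with a median log2 fold change of 0.08, which turned when libraries were scaled by their totals (-0.05) and without Itga8+ replicate 3 (-0.16). Prrx2 was higher in Itga8+ MSCs, at 28.9, 63.9 and 38.2 CPM against 0.30, 1.15 and 1.45 CPM (log2 fold change 5.50, standard error 0.656, FDR = 8.74e-05), whereas its relative Prrx1 was lower, at 7.52, 16.7 and 11.9 CPM against 47.7, 50.7 and 50.4 CPM (log2 fold change -2.04, standard error 0.325, FDR = 0.000661). Both encode homeobox proteins of limb mesenchyme, and neither overlapped. Six2, another homeobox gene, was higher (26.1 ± 12.2 against 2.88 ± 1.08 CPM). Zeb2, a repressor of epithelial genes, was lower, at 18.0, 8.15 and 14.7 CPM against 248, 241 and 315 CPM (log2 fold change -4.30, FDR = 0.000149), as was Snai2 (-1.79). Foxf1, chosen after its values were seen, was at 10.3, 9.09 and 8.20 CPM, with 3 counts in CD51+CD140a+ MSCs. Of 39 Hox genes, which record position along the body and the limb, 23 were tested, 5 (21.7%) were called higher and 7 (30.4%) lower, with a median of -0.57 (-1.31 without Itga8+ replicate 2). The share called higher was near that of all genes. Those higher were Hoxc10 (18.4, 8.00 and 9.65 CPM against 4.18, 4.82 and 4.74 CPM, not called without Itga8+ replicate 1, 0.95), Hoxd8 (1.6), Hoxd9 (2.50), Hoxd10 and Hoxd13, the last 2 with at most 0.831 CPM. Those lower included Hoxa10, at 17.0, 32.1 and 20.0 CPM against 68.9, 59.9 and 69.9 CPM (log2 fold change -1.52, FDR = 0.00321), and Hoxa9, Hoxa5 and Hoxb2, at log2 fold changes of -1.70, -2.19 and -2.05.

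Interferon-stimulated genes were mostly lower in Itga8+ MSCs, and more complement genes were called lower than higher. Of 17 complement genes, 8 (47.1%) were called lower and 3 (17.6%) higher, beside 14.3% and 21.2% over all genes, with a median log2 fold change of -0.93. This median moved between -3.37 without Itga8+ replicate 1 and -0.10 without CD51+CD140a+ replicate 2, and 5 genes were called higher without Itga8+ replicate 3. C4b, which encodes complement component 4, was counted at 87.5, 15.8 and 387 CPM in Itga8+ MSCs and at 2006, 1619 and 2631 CPM in CD51+CD140a+ MSCs (log2 fold change -3.67, standard error 1.03, FDR = 0.0197). C1s1, C3 and C2 were lower too (-4.21, -3.59 and -6.40), C3 and C2 chosen after their values were seen. Each Itga8+ MSC library lay below each CD51+CD140a+ MSC library for these genes. Cfp, which encodes properdin, a product of neutrophils, was higher (21.2, 73.0 and 5.6 CPM against 4.13, 4.50 and 2.61 CPM), again highest in Itga8+ replicate 2 (log2 fold change 3.15, and 1.87 without it). Of 20 interferon-stimulated genes, 14 (70%) were called lower and 1 (5%) higher, beside 14.3% and 21.2% over all genes, with a median of -2.26. Irf1, an interferon-induced transcription factor, was at 100.4, 147 and 139 CPM against 921, 1172 and 1602 CPM (log2 fold change -3.26, standard error 0.348, FDR = 4.06e-05), and Gbp2, Oasl2 and Ddx58 had log2 fold changes of -4.54, -4.67 and -2.58. Isg15, chosen after its values were seen, was lower, at 1.33 ± 1.15 against 9.81 ± 2.26 CPM. The gene called higher, Mx1, had 27 counts over the Itga8+ MSC libraries and 1 over those of CD51+CD140a+ MSCs (ratio 48.7, 95% counting interval 8.74 to 1925), and its call was lost without Itga8+ replicate 2, without any 1 of the CD51+CD140a+ replicates, at an FDR under 0.05, with limma-trend, with the 6 libraries alone, with a replicate block and in thinned libraries.

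Genes of glycolysis were mostly higher in Itga8+ MSCs, whereas the calls of respiration genes were lost or changed in number when any 1 library was left out. Of 17 glycolysis genes, 11 (64.7%) were called higher and 2 (11.8%) lower, the last near the share of all genes (21.2% higher and 14.3% lower). The median log2 fold change was 1.48. Pkm, which encodes pyruvate kinase, was counted at 866, 619 and 897 CPM in Itga8+ MSCs and at 88.3, 121 and 98.6 CPM in CD51+CD140a+ MSCs (log2 fold change 2.95, standard error 0.260, FDR = 1.04e-05). Eno1, which encodes enolase, was at 1148, 1296 and 869 CPM against 214, 245 and 217 CPM (log2 fold change 2.29, FDR = 6.25e-05), and Ldha, which encodes lactate dehydrogenase, at 1389, 2466 and 1390 CPM against 476, 517 and 442 CPM (log2 fold change 1.87, FDR = 0.000648). These enzymes were higher in every Itga8+ MSC library. The glucose transporter gene Slc2a3 was lower, at 24.1, 9.30 and 28.8 CPM against 228, 275 and 264 CPM (log2 fold change -3.62, FDR = 0.0011). Gapdh was called lower at a level under 6 CPM in every library, a value that is uncertain because near-identical copies elsewhere in the genome can take its reads. Of 33 nuclear genes of the respiratory chain, 9 (27.3%) were called higher, beside 21.2% over all genes, and none lower, with a median of 1.23. Cox4i1, a subunit of cytochrome c oxidase, was at 132, 520.3 and 95.6 CPM against 71.2, 96.7 and 67.0 CPM, with Itga8+ replicate 2 alone far above the rest. Without that replicate none of these genes was called and the median was 0.18, and the number called was 25 without Itga8+ replicate 3, 16 without Itga8+ replicate 1, 17 with DESeq2 and between 1 and 5 without 1 of the CD51+CD140a+ replicates, with limma-trend, with a replicate block, with the 6 libraries alone or at an FDR under 0.05. Lipid handling genes showed no common direction, with 5 (22.7%) of 22 called higher, a share near the 21.2% of all genes, 5 (22.7%) lower and a median of 0.32 (0.17 with bounds in place of floor genes, and -0.09 without Itga8+ replicate 3). Without 1 of the CD51+CD140a+ replicates, between 1 and 3 of them were called higher, and 3 were called lower without CD51+CD140a+ replicate 2, with a replicate block and at an FDR under 0.05. Between 2 and 3 were called higher with limma-trend, library totals, the 6 libraries alone or a replicate block, without Itga8+ replicate 3 and at an FDR under 0.05.

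Cell cycle genes were more often higher and immediate early genes more often lower. Of 20 cell cycle genes, 10 (50%) were called higher and none lower, beside 21.2% and 14.3% over all genes. Their median log2 fold change was 1.03. Cdk1, the kinase that drives mitosis, was counted at 105, 164 and 61.2 CPM in Itga8+ MSCs and at 20.9, 16.2 and 20.5 CPM in CD51+CD140a+ MSCs (log2 fold change 2.52, standard error 0.396, FDR = 0.000609), and Ccnb2, a cyclin, at 128, 150.3 and 56.9 CPM against 33.4, 26.1 and 32.7 CPM (log2 fold change 1.86, FDR = 0.0025). Both were higher in every Itga8+ MSC library. Pcna, a replication factor, was at 70.5, 246 and 61.5 CPM against 49.2, 48.6 and 42.1 CPM and was called higher, but not without Itga8+ replicate 2 (0.53), without any 1 of the CD51+CD140a+ replicates, with the 6 libraries alone or with a replicate block. Of 30 immediate early and stress genes, 13 (43.3%) were called lower and 6 (20%) higher, beside 14.3% and 21.2% over all genes, with a median of -0.71. Egr1 was at 2390, 1167 and 2733 CPM against 5840, 6352 and 7376 CPM (log2 fold change -1.64, FDR = 0.00312), Junb at 979 ± 139 against 2455 ± 665 CPM (log2 fold change -1.33, FDR = 0.00358) and Jun at 1337 ± 359 against 2955 ± 926 CPM (log2 fold change -1.14, FDR = 0.0244, not called without Itga8+ replicate 2 or without CD51+CD140a+ replicate 3). Fos, in contrast, was at 2381, 6076 and 3900 CPM against 4928, 6144 and 6236 CPM and was not called (log2 fold change -0.49, FDR = 0.34). Fosl1 was higher, at 173, 170.1 and 132 CPM against 14.9, 8.20 and 10.6 CPM (log2 fold change 3.82, FDR = 2.84e-05), as was Nr4a2 (2.48). These genes respond within minutes to handling of cells as well as to signals, and the populations were released with different enzymes, so that the parts of population and preparation cannot be told apart.

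**Figure D5:**
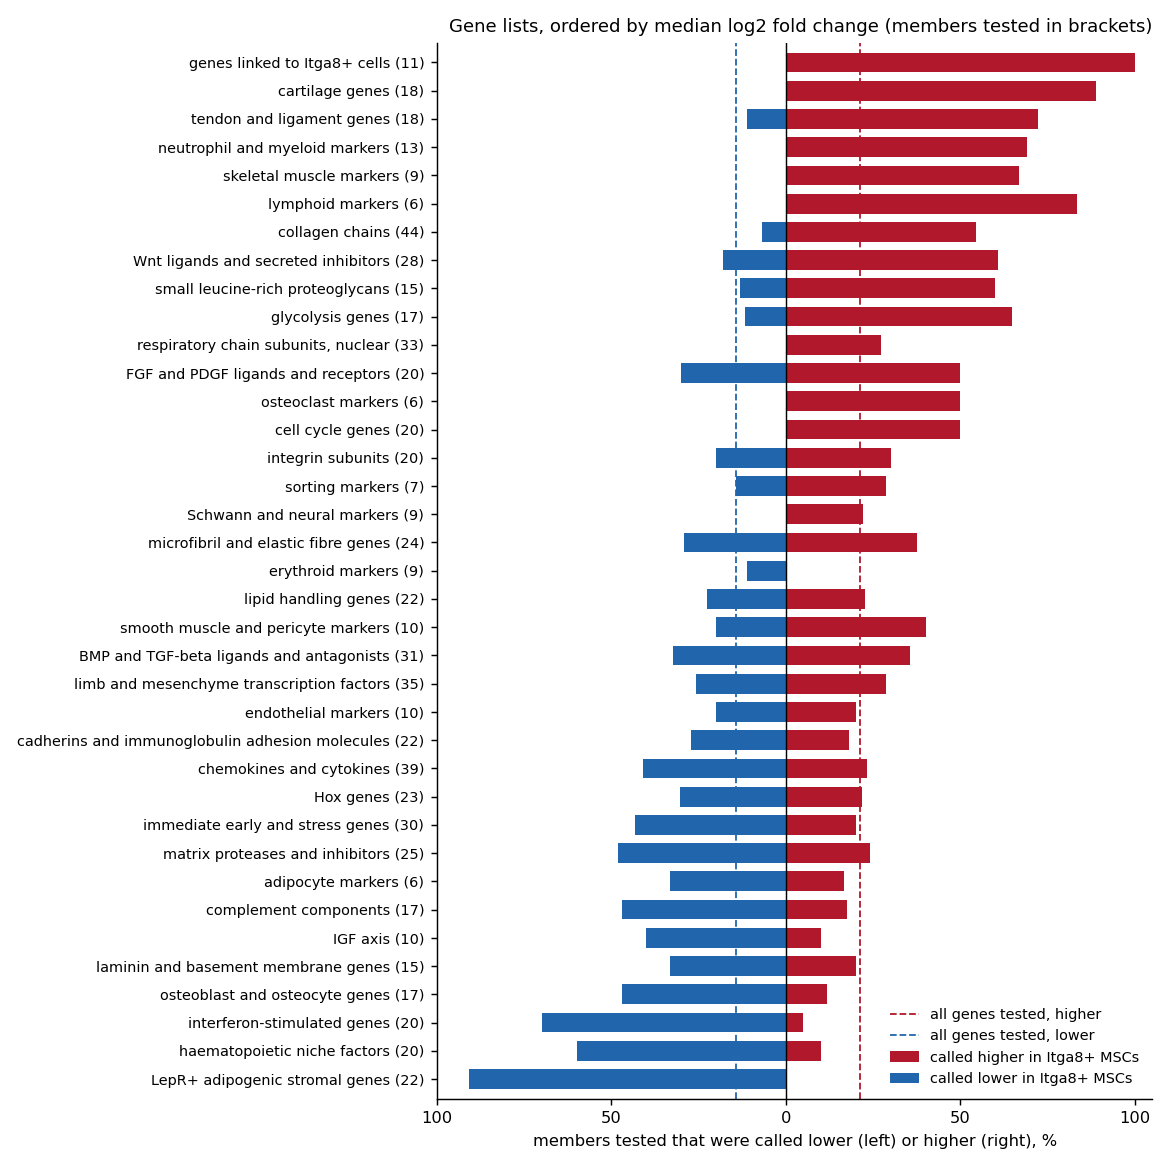
Share of the tested members of each list that was called higher (red, to the right) or lower (blue, to the left) in Itga8+ MSCs, in percent, with lists ordered by their median log2 fold change and the number of members tested in brackets. Dashed lines give the shares over all genes tested, 21.2% higher and 14.3% lower. Genes linked to Itga8+ cells, cartilage genes and tendon and ligament genes stood at the top, and interferon-stimulated genes, niche factors and genes of LepR+ stroma at the bottom.

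Ranked by fold change over all protein-coding genes with at least 50 CPM in the higher population and no overlap, the 10 leading genes in Itga8+ MSCs were Tnmd, Ptx4, Mstn, Thbs4, Scx, Kera, Reg3g, Bpifb1, Shisal2b and Chodl. Mstn, Reg3g and Shisal2b had no read in CD51+CD140a+ MSCs, and Ptx4, Scx and Kera had 3 counts or fewer. The places of these genes rest on fitted values that depend on the prior count. By their bounds Mstn, Reg3g and Shisal2b would stand below Cilp2 (log2 fold change 12.28). Reg3g, which encodes an antimicrobial lectin of epithelia, was counted at 15.9, 139 and 43.3 CPM with no read in CD51+CD140a+ MSCs (at least 2253-fold). Bpifb1, which encodes a secreted protein of airway and gland epithelia, was at 571, 741 and 296 CPM against 0, 0 and 0.161 CPM (log2 fold change 13.24, FDR = 2.34e-06). Shisal2b was at 13.0, 113 and 28.4 CPM with no read in CD51+CD140a+ MSCs (at least 1762-fold). All 3 had reads in each Itga8+ MSC library. The 10 genes with the largest falls were Rspo2, Cyp1b1, Esm1, Gm4951, Kng1, Gdpd2, Kitl, Adcyap1r1, Angpt2 and Gpr50. Cyp1b1, which encodes a cytochrome P450 that oxidises steroids and retinoids, was at 3.51, 1.82 and 9.24 CPM against 1779, 2123 and 2021 CPM (log2 fold change -8.67, standard error 0.937, FDR = 4.45e-05). Angpt2, which encodes angiopoietin 2, the antagonist of angiopoietin 1, was at 1.24, 0.208 and 0.289 CPM against 103, 119 and 117 CPM (log2 fold change -7.58, FDR = 9.47e-06). The receptor gene Adcyap1r1 was at 0, 0 and 1.04 CPM against 75.7, 70.7 and 63.9 CPM (log2 fold change -7.69). Itga8+ replicate 3 was the only Itga8+ MSC library with reads of Adcyap1r1. Without it the fitted value of -13.68 depends on the prior count and is not a measured fold change. The Itga8+ MSC libraries were at or below 14.7 CPM, the level of Gdpd2 in replicate 3, for these 10 genes, and all CD51+CD140a+ MSC libraries were above 50 CPM.

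The genes called were also ranked by level. Among genes called higher without overlap, those with the highest mean TPM in Itga8+ MSCs were Sparc, which encodes osteonectin (32960 TPM against 3877 TPM), Col2a1 (23260 against 278 TPM), Chad (19270 against 64.6 TPM), Cnmd (13620 against 114 TPM) and Fmod (9616 against 86.6 TPM). Cst3, Comp, Ngp, Mgp and Tnmd followed, of which Cst3, which encodes the protease inhibitor cystatin C, lost its call without Itga8+ replicate 2 (0.69) and without CD51+CD140a+ replicate 1 (1.55) or 3 (1.62). Mgp, which encodes matrix Gla protein, an inhibitor of calcification, was at 1162, 4814 and 1100 CPM against 62.0, 90.5 and 76.7 CPM (log2 fold change 4.95, standard error 0.687, FDR = 0.00026). Ngp was at 1190, 6926 and 469.7 CPM against 146, 80.5 and 49.6 CPM. Among genes called lower, Cxcl12 led with 21420 TPM in CD51+CD140a+ MSCs against 112 TPM in Itga8+ MSCs, followed by Ibsp (19440 against 382 TPM), Hp (14240 against 415 TPM) and Gpx3, which encodes a secreted glutathione peroxidase (12820 against 2189 TPM). Serping1, H2-D1, Gas6, Apoe, Adipoq and Egr1 completed the 10. H2-D1, a class I major histocompatibility gene with near-identical relatives, was at 645, 1084 and 497 CPM against 6900, 7877 and 8860 CPM (log2 fold change -3.41, FDR = 2.73e-05).

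The other populations placed the leading genes in a wider order, given as means of 3 libraries and without a test. Tnmd had 29.0 CPM in Itga8-Alcam+ BLCs and 91.7 CPM in Sca-1+ MSCs, both between Itga8+ MSCs (2501 CPM) and CD51+CD140a+ MSCs (0.0521 CPM). Cxcl12 had 231 and 457 CPM in these populations, near the level in Itga8+ MSCs (258 CPM), and Kitl 4.45 and 13.2 CPM, so that CD51+CD140a+ MSCs stood alone at the top for both. Lepr had 24.5 and 201 CPM, and Col2a1 34240 and 1153 CPM.

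The cDNA kit did not mark the strand, so that reads of a gene and of a partner on the other strand cannot be told apart. Other annotated genes covered at least 10% of the exons of Angpt1, C1s1, C2, Csf2, Fbn1, Fgfr3, Fosl1, Gdpd2, Hoxb2, Il16, Itga10, Loxl3, Notum, Pdgfa, Pkm, Rspo3, Sfrp2, Spp1 and Tgfb3, with the largest share for Fosl1 (57.2%), and the values of these genes are uncertain to that extent. C4b, which has a near-identical copy, is uncertain as well.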

How the data were processed

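Counts of reads per gene, deposited by the authors as whole numbers in 1 table for each library, were used for 12 libraries (17580677 to 31332475 counts in the 6 compared). cDNA was made with a SMART-Seq kit and libraries with Nextera XT. The submitters' processing notes list FastQC 0.11.7, Trimmomatic 0.38, HISAT2 2.1.0, SAMtools 1.9 and featureCounts 1.6.3 on mm10, whereas the study's methods name TopHat and Bowtie2. The annotation release and strand setting are not given in the sources used here. Groups followed the labels.

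Genes reaching 0.5 CPM in 1 or more libraries (18648 of 49585) were fitted in 1 model of 12 libraries by edgeR's quasi-likelihood test (edgeR 4.0.16, R 4.3.3, TMM scaling) and called where the fold change exceeded 2 and the FDR was below 0.1, the thresholds that the study used in iDEP. Standard errors were derived as the fitted log2 fold change, without its sign, over the square root of the test's F statistic. They are approximate, above all for genes near 0 counts. Alternatives were DESeq2 1.42.0, limma-trend (limma 3.58.1), RLE size factors, scaling by library totals, other filters on low counts, the 6 libraries alone, a replicate block, libraries thinned to equal totals, a stricter FDR and each library left out in turn. Figures and summaries used matplotlib 3.10.9, scipy 1.17.1, pandas 2.3.3 and numpy 2.4.6 in Python 3.11.15. The fit was also run on simulated counts, in which far fewer genes differed than in these data and all populations had the same spread. That run does not test the FDR under the conditions of these data. TPM used exon unions of GENCODE M21, which lacked 259 of the gene IDs. Counts limit precision only at low levels, where 95% Poisson-based intervals are given.

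Genes were named by rule: the sorting markers, the list of genes linked to Itga8+ cells, Cxcl12, Kitl and Angpt1; the 10 largest changes in each direction among called protein-coding genes without overlap and with at least 50 CPM; the 10 of the highest TPM in each direction; and up to 4 called genes of each list and direction with the highest CPM. By this rule 224 genes qualified, and 60 more were named after their values were seen, and some of the genes that qualified are not reported here. The members and lists were chosen with earlier results of these data known.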

Additional observations from a re-analysis of the deposited data

How the results depend on the processing

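The number of genes called higher in Itga8+ MSCs (3959) ranged from 2995 to 4562 when 1 library was left out, and that called lower (2672) from 2068 to 3441. In the other alternatives the counts stayed within 1.5 times the reported ones, from 2912 with the 6 libraries alone to 4335 with DESeq2 for genes called higher, and from 2049 at an FDR under 0.05 to 3292 with limma-trend for genes called lower. Of the 284 genes selected by the naming rule or named after their values were seen, 268 were called, 221 of these kept their call in every alternative and none reversed its direction.

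With 1 library left out, log2 fold changes ranged from -0.24 to 1.11 for Itga8, from -0.25 to 1.37 for Col1a2 and from -0.38 to 1.77 for Col3a1, lowest without Itga8+ replicate 3, and from -0.64 to 0.93 for Pecam1, lowest without Itga8+ replicate 1. None of these genes was called with all libraries. Without Itga8+ replicate 2 the median of the respiratory chain list was 0.18, that of the lymphoid list 1.5 and that of the erythroid list -1.49. The cause was not tested. Over all genes, the median of 0.182 on the log2 scale became 0.080 when libraries were scaled by their totals, 0.082 with limma-trend, 0.048 without Itga8+ replicate 2 and 0 with no filter beyond 1 count.

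Replicate numbers were not treated as pairs, since the deviations of same-numbered libraries from their population means correlated at -0.00287, 0.160 and 0.149 for numbers 1 to 3. With a replicate block, 3199 genes were called higher and 2251 lower. Levels near the limit of 3 counts restrict fold changes to bounds, and the spread between Itga8+ MSC libraries, larger than that between CD51+CD140a+ MSC libraries, restricts calls of moderate changes.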
